A study of Mus musculus with 4 samples.

Results

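Among the tumor cells of KPC pancreatic tumors, 3731 cells were selected because they expressed the genes *Tenm1*, *Pkhd1*, *Pik3c2g*, *Plch1*, *Onecut3* and *Hnf1aos1* (list H) more broadly than any of 3 other gene lists. They are called H cells here, and they were 3731 of 19431 tumor-gate cells and of 45218 deposited cells. A tumor-gate cell had at least 2000 unique molecular identifiers (UMIs, each counting 1 captured RNA molecule), at least 3 of 8 epithelial genes (*Krt7*, *Krt8*, *Krt18*, *Krt19*, *Epcam*, *Cldn4*, *Cldn7* and *Cdh1*), and no UMI of *Ptprc*, *Pdgfra* or *Pecam1*, which mark leukocytes, fibroblasts and endothelium. Each such cell was scored by how many of 6 genes it had of list H, of list G (*Gkn1*, *Gkn2*, *Muc5ac*, *Mucl3*, *Tff1* and *Sptssb*), of list S (*Sprr1a*, *Ivl*, *Anxa10*, *Glod5*, *Fermt1* and *Wfdc2*) and of list N (*Klhl1*, *Lingo2*, *Hmga2*, *Rgs20*, *Ndst3* and *Tnnt2*), and it was kept as an H cell where list H had the most, at least 2, with no tie. The members were thus chosen by measured values of these same cells, so the levels of the rule's genes and all comparisons between H cells and cells of the other lists are given as descriptions, without a test.

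KPC cells are a mouse pancreatic carcinoma line that carries mutant *Trp53*, and here 1 line (FC1242) had been grafted into the pancreas of obese male mice after 24 weeks of a high-fat diet. C57BL/6 is the strain in the labels of all groups, and the methods name C57BL/6J for mice given D-CAN. The labels give an age of 7 months for all mice, and the methods give an older one. The 4 conditions were sequenced as 4 libraries. In Pdgfrb-TK/GCV, mice with a thymidine kinase driven by the *Pdgfrb* promoter received ganciclovir (GCV, 50 mg/kg), which kills dividing cells that express the kinase. *Pdgfrb* is expressed by several kinds of stromal cell, so the model does not single out 1 of them. The same strain on saline was Pdgfrb-TK/PBS. In D-CAN, wild type mice received a killer peptide that homes to adipose stromal cells (30 mg/kg), and wild type mice on saline were WT/PBS. Treatment lasted 25 days in all. The tumor suspensions of several mice were pooled into 1 library per condition, so no spread between mice could be measured, no test between conditions was possible, and the intervals below (95%) cover counting error only.

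Ducts of the pancreas, bile tract and kidney are lined by epithelium whose identity depends on ONECUT and SOX9 transcription factors, and many of these cells carry a primary cilium. *Pkhd1* encodes fibrocystin, a large ciliary membrane protein of kidney tubules and of bile and pancreatic ducts that is mutated in recessive polycystic kidney disease. In pancreatic carcinoma, tumor cells that keep ductal and gut epithelial programs are usually set against cells with squamous or mesenchymal programs.

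The 6 genes of list H differ in function and position (coordinates from GENCODE M21, GRCm38). *Pkhd1* lies at chr1:20057779-20618064 on the minus strand. *Tenm1* (chrX:42527866-43429126, minus) encodes a teneurin, a transmembrane adhesion protein that binds latrophilin receptors. *Pik3c2g* (chr6:139587221-139969284, plus) and *Plch1* (chr3:63696234-63899472, minus) encode a class II phosphoinositide 3-kinase and a phospholipase C, 2 enzymes of phosphoinositide turnover. *Onecut3* (chr10:80494835-80517276, plus) encodes a transcription factor of the ONECUT family. *Hnf1aos1* (chr5:114968784-114998042, plus) is a noncoding antisense RNA, so its reads could be told from those of the opposite strand only where the counting used strand.

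RefSeq promoter windows (GRCm38.p6, 250 bases before to 50 after a start site) were at hand for 4 of the 6 genes, *Pkhd1*, *Tenm1*, *Pik3c2g* and *Plch1*. The *Tenm1* window is the one among them that holds the ONECUT letters ATTGAT on either strand, which 7.54% of 32851 windows hold. It is shown because *Onecut3*, of that factor family, is a gene of the rule and *Onecut2*, which is not, was higher in H cells than in S and N cells of every library. The stretch runs 5′ to 3′ along the gene (chrX:43274952-43275034, minus strand), lies before a RefSeq start site that is inside the longer GENCODE span, and has the match in capitals.
*Tenm1*: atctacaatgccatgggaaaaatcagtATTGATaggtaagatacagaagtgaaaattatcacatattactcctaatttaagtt
The *Pkhd1* and *Plch1* windows held no ONECUT letters and no match to TGTTTAC (forkhead, 3.65% of all windows) or TATAAA (13.6%). Matches to letters of other factors are not reported here. TATAAA had 4 matches in the *Tenm1* window and 1 in a window of *Pik3c2g*. A match of letters is a description and not a binding site.

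The libraries held 12280, 10495, 10786 and 11657 cells with 127722502, 84020317, 130115741 and 155408336 UMIs, here and throughout in the order Pdgfrb-TK/GCV, then Pdgfrb-TK/PBS, then D-CAN, then WT/PBS, and 5381, 5982, 3080 and 4988 cells passed the tumor gate. H cells numbered 632, 1488, 958 and 653. Their median depth was 10341, 7326.5, 20103.5 and 11630 UMIs per cell. Pairs of libraries shared 26 to 42 cell barcodes, and 1 barcode was an H cell in both libraries of a pair (Pdgfrb-TK/PBS and D-CAN).

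H cells made up 11.7% of tumor-gate cells in Pdgfrb-TK/GCV (exact binomial interval 10.9 to 12.6%), 24.9% in Pdgfrb-TK/PBS (23.8 to 26.0%), 31.1% in D-CAN (29.5 to 32.8%) and 13.1% in WT/PBS (12.2 to 14.1%). The share was thus 0.472-fold that of its PBS library with GCV (interval 0.430 to 0.519) and 2.38-fold with D-CAN (2.15 to 2.63), in opposite directions. The D-CAN direction turned (0.836-fold) when H cells that also had at least 2 genes of another list were left out, as given below. The saline libraries, which differ in genotype, also differed, the share in Pdgfrb-TK/PBS being 1.90-fold that in WT/PBS (1.73 to 2.09), so treatment and spread between libraries cannot be told apart. Set against the other saline library, the GCV fold was 0.897 and the D-CAN fold 1.25. Because detection depends on depth, the rule was repeated after every cell had been thinned to 2000 UMIs, which gave shares of 6.82%, 12.9%, 13.2% and 3.78% and folds of 0.531 with GCV and 3.49 with D-CAN. After thinning, the share in Pdgfrb-TK/PBS was 3.40-fold that in WT/PBS (2.83 to 4.12). The share of N cells was 2.80-fold with GCV and 1.54-fold with D-CAN, and after thinning 2.18-fold and 2.70-fold. The share of G cells was 0.257-fold and 0.348-fold, and after thinning 0.406-fold and 1.04-fold. As shares of all cells with at least 2000 UMIs, host cells included, H cells were 6.98%, 19.6%, 12.8% and 7.21%.

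**Figure D1:**
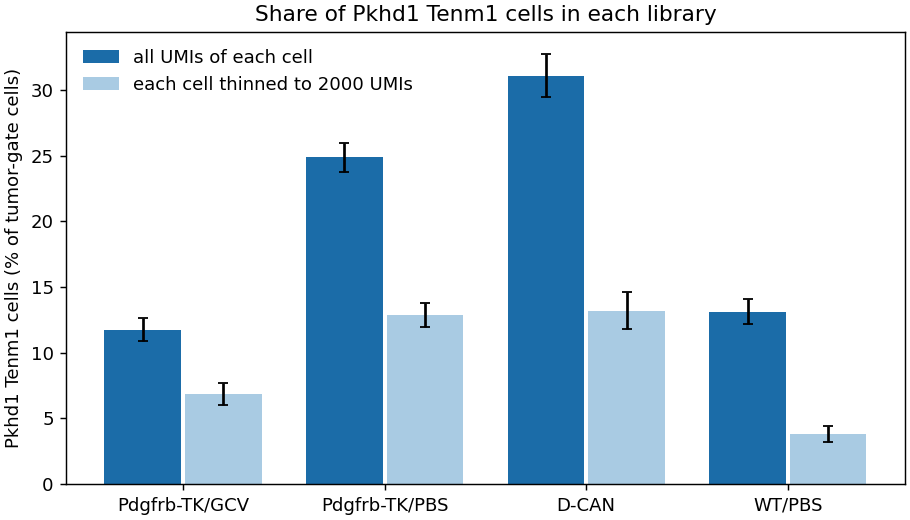
Bars give H cells as a percent of tumor-gate cells in the 4 libraries, with all UMIs (dark) or after thinning each cell to 2000 UMIs (light), and error bars are exact 95% binomial intervals. Pdgfrb-TK/GCV (11.7%) lies below Pdgfrb-TK/PBS (24.9%) and D-CAN (31.1%) above WT/PBS (13.1%), and thinning keeps both directions.

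Cells with 6, 5, 4, 3 and 2 list H genes numbered 809, 1099, 949, 660 and 214. The H cells of WT/PBS stood apart, since 4.13% of them had all 6 genes against 25%, 18.1% and 37.1% in the other libraries. H cells just inside the rule, with 2 list H genes and fewer of any other list, numbered 17, 57, 32 and 108 and had summed list H levels of 413, 672, 678 and 397 CPM (UMIs of the genes per 1000000 UMIs of the summed cells). Cells just outside it with a single list H gene and none of the others numbered 3, 1, 8 and 2, whereas ties between list H and another list kept out 345, 847, 324 and 504 cells, with summed list H levels of 534, 606, 461 and 271 CPM. The border is therefore mostly one between lists and not between presence and absence. Most H cells also had at least 2 genes of another list, namely 90.2%, 89.2%, 88.4% and 67.1% of them. With such mixed cells left out the D-CAN fold of the share turned to 0.836, while the GCV fold was 0.431. No doublet caller was run, and leaving out the deepest 8% of cells of each library gave folds of 0.479 and 2.26.

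*Pkhd1* stood at 188 CPM (exact Poisson interval 179 to 198), 165 (158 to 172), 132 (127 to 136) and 113 (106 to 119) in H cells. In S cells it stood at 19.4, 21.2, 16.4 and 14.8 CPM, and in N cells at 17.3, 21.4, 19.0 and 20.9 CPM. *Tenm1* ranged more widely among the H cells, at 203, 178, 98.0 and 55.7 CPM, against 16.4, 19.2, 15.1 and 5.79 CPM in S cells and 4.28, 3.82, 2.32 and 2.30 CPM in N cells. In all libraries both genes were highest in H cells.

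For the phosphoinositide enzymes, *Pik3c2g* stood at 199.5, 289, 194 and 123 CPM in H cells and *Plch1* at 178, 183, 172 and 89.8 CPM. In N cells *Plch1* stood at 52.3, 53.6, 60.1 and 23.0 CPM. *Onecut3* stood at 143, 118, 128 and 64.7 CPM in H cells and at 5.57, 14.1, 5.16 and 3.50 CPM in N cells. *Hnf1aos1* stood at 246, 288, 265 and 40.1 CPM in H cells. The WT/PBS value of *Hnf1aos1* was the one far from the rest, and WT/PBS had the lowest level of all 6 genes.

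Between 39.2% (*Hnf1aos1*, WT/PBS) and 91.5% (*Plch1*, D-CAN) of H cells had a UMI of a given list H gene, and between 7.66% and 45.0% did after thinning to 2000 UMIs. As a measure of free RNA in the droplets, *Ptprc* cells (at least 2000 UMIs, a *Ptprc* UMI, fewer than 3 epithelial genes, no *Pdgfra* or *Pecam1*) had them in at most 3.11%, and at most 2.67% after thinning, at median depths of 4878.5, 3410, 4192.5 and 6316 UMIs. The summed list H level was 1157, 1222, 989 and 486 CPM in H cells and 11.4, 58.1, 15.1 and 5.11 CPM in *Ptprc* cells.

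To see each gene without its own part in the choice of cells, H cells were chosen again from the other 5 genes. The left-out gene was then still higher in H cells in all libraries, by 2.40-fold (*Plch1*, D-CAN) to 12.6-fold (*Hnf1aos1*, Pdgfrb-TK/GCV) against S cells and by 2.97-fold (*Plch1*, D-CAN) to 55.9-fold (*Pik3c2g*, Pdgfrb-TK/GCV) against N cells. G cells were nearer in places, as left-out *Pik3c2g* stood at 96.8 CPM in H cells and 80.2 CPM in G cells of WT/PBS and at 221 and 166 CPM in D-CAN. Left-out *Pkhd1* stood at 220, 166, 150 and 102 CPM in such H cells. Over the 15 gene pairs and 4 libraries, thinned tumor-gate cells had both genes of a pair 1.06 to 5.12 times as often as independent detection would give (median 2.04).

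**Figure D2:**
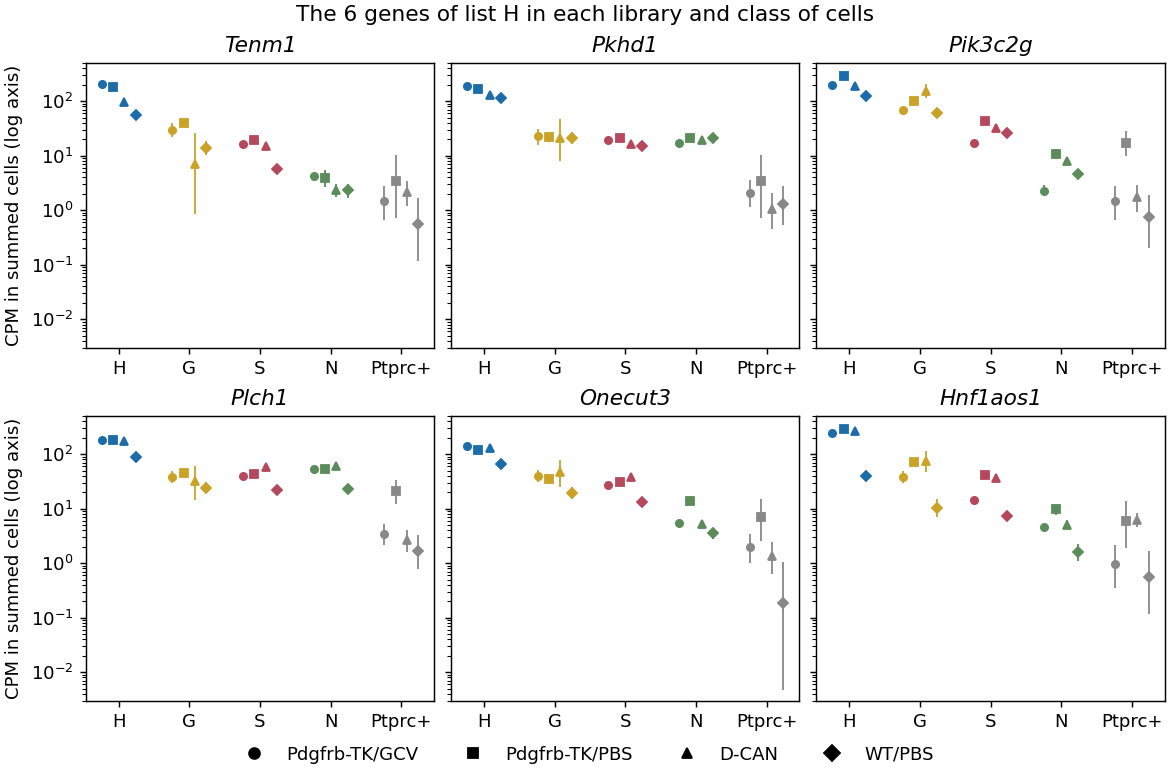
Each panel gives the level of 1 list H gene in CPM (log axis) in the summed H, G, S, N and Ptprc-positive (Ptprc+) cells of each library, with marker shapes for libraries and exact 95% Poisson intervals. Within every library H cells lie highest in each panel, and the WT/PBS level of *Hnf1aos1* in H cells (40.1 CPM) falls among the G and S cell levels of the other libraries.

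The G cells of D-CAN were few, 40 cells with a median of 4250.5 UMIs and 44.9% mitochondrial UMIs, so H cells were compared with G, S and N cells together and, as a choice made after the data were seen, with S and N cells alone. Against G, S and N cells, 5 of 4185 genes were at least 2-fold higher in H cells in all 4 libraries (0.119%), on a log2 scale with 1 CPM added, and 0 were lower (0%). They were *Pzp*, a protease inhibitor of the macroglobulin family, *Cp* (ceruloplasmin, a copper-carrying ferroxidase), *Bicd1* (a dynein adaptor), *Mob3b* and *Hdac8* (a histone deacetylase). Without the WT/PBS library 33 were higher and 2 lower, and without the D-CAN library 11 were higher and 0 lower. *Cp* stood at 318, 341, 422 and 200 CPM in H cells against 67.1, 83.0, 128 and 68.9 CPM in G cells. *Hdac8* stood at 97.8, 98.5, 86.6 and 65.7 CPM in H cells against 25.1, 27.0, 33.0 and 19.6 CPM in N cells.

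Against S and N cells alone, 58 of 4136 genes were at least 2-fold higher in all 8 ratios (1.4%) and 11 were lower (0.266%), against 93 and 22 without the WT/PBS library and 91 and 14 without the D-CAN library. Without the Pdgfrb-TK/PBS library they were 61 and 19. Leading the 58 genes by median log2 ratio were *Dmbt1* (3.66), *Pzp* (3.50), *Sgpp2* (3.27), *Syt16* (3.24), *Ces2g* (3.12), *Ugt2b34* (3.01), *Prom1* (2.96), *0610040J01Rik* (2.96), *Tmprss2* (2.86), *Cfi* (2.85), *Atp8b1* (2.84) and *Sh2d4a* (2.81). *Dmbt1*, a secreted mucosal scavenger protein, stood at 1692, 1457, 1068 and 770 CPM in H cells. Its S cell levels were 265, 380, 257 and 232 CPM, and its N cell levels 36.9, 56.9, 34.2 and 15.3 CPM. *Prom1*, a protein of apical membrane protrusions and a duct gene, stood at 418, 341, 289 and 372 CPM in H cells, at 91.3, 93.8, 105 and 90.2 CPM in S cells and at 16.3, 24.6, 13.8 and 18.0 CPM in N cells. *Tmprss2* is an apical serine protease, *Atp8b1* a canalicular phospholipid flippase, and *Ces2g* and *Ugt2b34* are enzymes of xenobiotic metabolism.

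The 58 genes were chosen by their ratios to S and N cells, so their ratios to G cells are given as values, with no comparison of the distances. In all 3 libraries other than D-CAN, 48 of the 58 were above G cells, and 5 were so by 2-fold. *Ces2g* was not among the 48, at 72.5, 75.3 and 46.0 CPM in the H cells and 66.5, 87.7 and 66.6 CPM in the G cells of Pdgfrb-TK/GCV, Pdgfrb-TK/PBS and WT/PBS. Of the other leading genes named above, *Dmbt1*, *Syt16*, *Ugt2b34*, *Tmprss2* and *Atp8b1* were not either, being below G cells in WT/PBS. *Dmbt1* stood at 973, 927, 462 and 898 CPM in the G cells of the 4 libraries.

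The genes lower in H cells were *Inhba* (-2.92), *Igfbp3* (-2.69), *Ptgs2* (-2.39), *Lgr6* (-2.24), *Tuba1a* (-2.18), *Klra4* (-2.12), *Ggct* (-2.01), *Ankrd1* (-1.78), *Areg*, *Pold4* and *Angptl4*. *Inhba*, which encodes the activin A subunit, stood at 41.2, 12.2, 11.7 and 9.80 CPM in H cells against 394, 355, 370 and 119 CPM in N cells. *Igfbp3*, a secreted binder of insulin-like growth factors, stood at 49.6, 22.2, 21.4 and 33.2 CPM in H cells against 199, 64.2, 130 and 95.1 CPM in S cells. *Ptgs2* makes prostaglandins, *Areg* is a ligand of the EGF receptor, and *Ankrd1* is a target of YAP. *Areg* stood at 116, 79.8, 54.3 and 128 CPM in H cells, with means over libraries of 282 CPM in S cells and 297 CPM in N cells. G cells had lower means than H cells for *Tuba1a* (19.2 against 24.7 CPM), *Lgr6* (4.46 against 4.94), *Klra4* (27.5 against 28.8) and *Ankrd1* (21.9 against 35.6). For the other lower genes the means of G cells were above those of H cells.

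**Figure D3:**
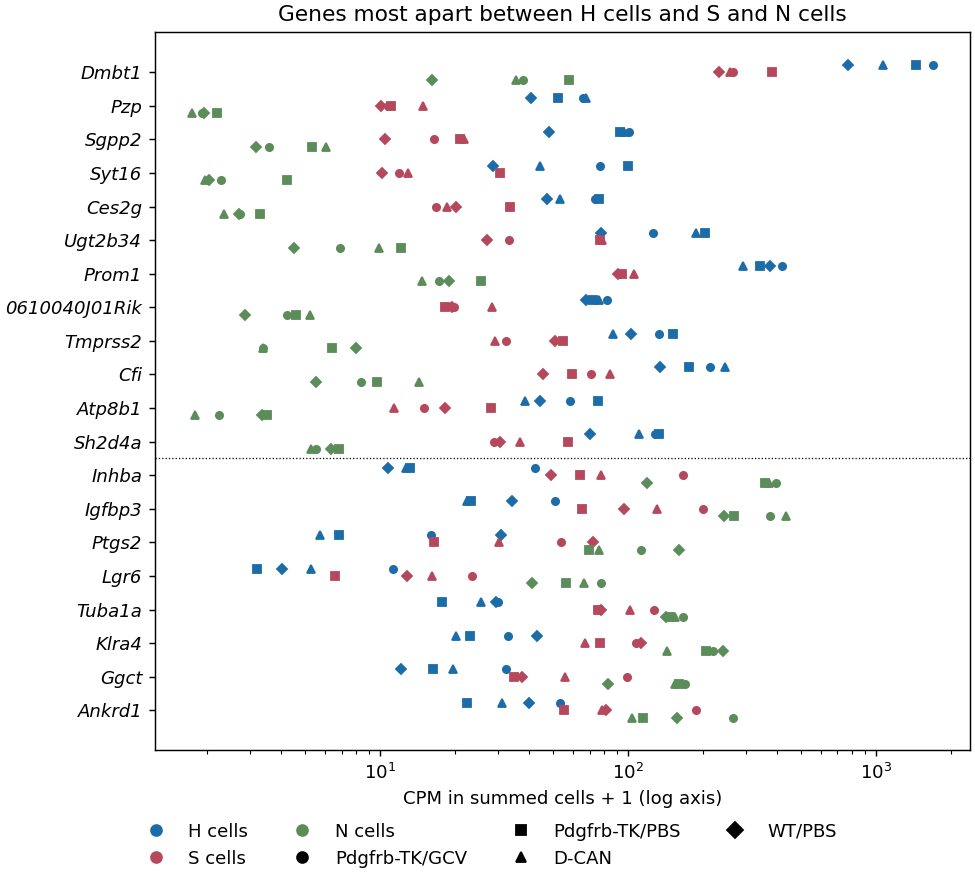
CPM plus 1 (log axis) of the 12 higher genes (above the dotted line) and 8 lower genes (below it) with the largest median ratio to S and N cells, in the H (blue), S (red) and N (green) cells of each library (marker shapes). For *Dmbt1*, H cells lie at 770 to 1692 CPM, S cells at 232 to 380 CPM and N cells at 15.3 to 56.9 CPM.

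The ductal name was checked on 16 duct genes, 10 of them abundant enough to be tested at 50 CPM. In all 8 ratios to S and N cells 7 of the 16 were above, 1 of them by 2-fold throughout (*Prom1*), and none was below; of all 4136 genes tested, 18.2% were above in all 8. Their median log2 ratio was 0.74, and it was 0.03 over all genes tested. *Onecut2*, the abundant ONECUT gene of these cells, stood at 1257, 1199, 1343 and 481 CPM in H cells against means of 483 CPM in S cells and 370 CPM in N cells. *Muc1* (apical mucin) stood at 333, 313, 231 and 172 CPM against 156 and 17.4 CPM, but G cells were at 320, 342, 160 and 244 CPM. *Slc4a4* (bicarbonate cotransporter) stood at 425, 414, 340.5 and 308 CPM against 255 and 261 CPM. Other duct genes were not above S and N cells in every library. *Sox9* stood at 117, 84.6, 124 and 93.9 CPM in H cells, below the mean of 166 CPM in N cells. *Spp1*, the most abundant duct gene, stood at 3333, 2362, 4156 and 2736 CPM against means of 3901 and 3742 CPM. Scarce in all of these cells were *Cftr*, the chloride channel of mature duct cells, and *Onecut1*. *Cftr* was at 7.93, 2.34, 5.00 and 0.471 CPM against means of 1.20 and 0.840 CPM, and below S cells in WT/PBS. *Onecut1* was at 1.42, 1.77, 3.04 and 0.188 CPM against 0.346 and 0.636 CPM, and is among the 7 above in all 8 ratios. The cells are thus named here by their genes and not as duct cells.

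Endoderm transcription factors gave 9 of 20 above in all 8 ratios, 0 of them by 2-fold throughout, and none below (median log2 ratio 0.38), where 18.2% of all genes tested were above and 17.1% below. Of the 20, 10 were abundant enough to be tested at 50 CPM. *Gata4* stood at 59.4, 55.2, 50.4 and 35.6 CPM against means of 18.2 CPM in S cells and 6.65 CPM in N cells. *Hnf4a* stood at 132, 129, 153 and 53.9 CPM against 72.0 and 66.2 CPM, *Klf5* at 296, 252, 272 and 208 CPM against 184 and 152 CPM, and *Pdx1* at 50.2, 58.2, 72.3 and 29.7 CPM against 37.7 and 34.0 CPM. *Foxa2* had a median log2 ratio of -0.01. The acinar factor *Ptf1a* was at 0 in H cells.

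Of 15 cilium and polycystin genes 4 were above in all 8 ratios, where 18.2% of all genes tested were, and none below (median log2 ratio 0.62), with 1 of the 15 abundant enough to be tested at 50 CPM. *Cys1* (cystin, a ciliary protein of cystic kidney disease) stood at 21.2, 18.5, 19.7 and 14.5 CPM against means of 5.19 CPM in S cells and 0.732 CPM in N cells, and *Kif12* at 13.7, 11.8, 11.8 and 4.62 CPM against 2.65 and 0.313 CPM. *Pkd2*, the polycystin channel, stood at 53.9, 49.8, 42.9 and 48.8 CPM against 20.2 and 39.7 CPM, and in D-CAN it was below the 48.1 CPM of N cells. Among 18 phosphoinositide genes, 7 of them abundant enough to be tested, 4 were above in all 8 ratios. The share was near that of all genes tested, and the median log2 ratio was 0.20. Among the 4 was *Pik3c2b* at 27.2, 29.7, 22.3 and 18.9 CPM against 9.11 and 3.68 CPM. Of 9 teneurin and latrophilin genes, 4 of them abundant enough, 1 was above in all 8, and the list's median log2 ratio was -0.10. It was the receptor gene *Adgrl2*, at 230, 180, 284 and 120 CPM against 88.2 and 62.6 CPM. Its relative *Adgrl3* stood at 475, 443, 394 and 231 CPM, below the mean of 855 CPM in N cells.

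**Figure D4:**
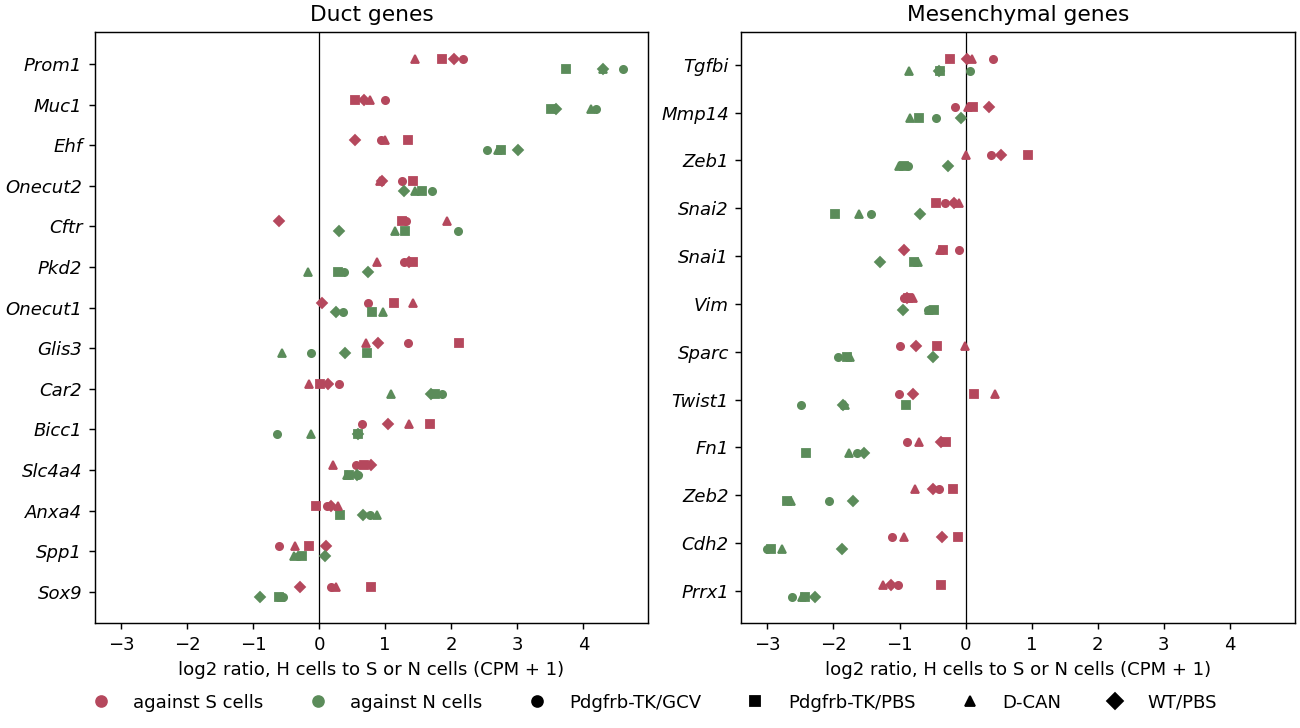
log2 ratios (1 CPM added) of H cells to S cells (red) and to N cells (green) of the same library (marker shapes) for 14 of the 16 duct genes and the 12 mesenchymal genes, ordered by median. *Prom1* and *Onecut2* lie above 0 at every point while *Sox9* and *Spp1* lie on both sides, and *Vim*, *Fn1*, *Zeb2*, *Cdh2* and *Prrx1* lie below 0 at every point.

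Of 15 genes of the classical tumor program, 8 were abundant enough to be tested at 50 CPM. Of the 15, 5 were above in all 8 ratios and none below (median log2 ratio 0.70). Of all genes tested 18.2% were above and 17.1% below. *Tff2*, a gastric trefoil peptide, stood at 1227, 1099, 1085 and 598 CPM in H cells, against means of 335 CPM in S cells, 26.6 CPM in N cells and 1076 CPM in G cells. *Lgals4* stood at 606, 1018, 558 and 535 CPM against means of 646 CPM in S cells, 36.8 CPM in N cells and 1344 CPM in G cells. In the classical list the mean of H cells was above that of G cells only for *Gata6*, *Cdx2*, *Hnf4a* and *Foxa2*. *Ttr*, a hepatocyte marker, stood at 203, 354, 323 and 230 CPM against 122 CPM in S cells and 6.78 CPM in N cells. *Alb*, which defines hepatocytes, was at 0.829, 2.41, 1.44 and 1.88 CPM. The 9 endocrine genes summed to at most 0.440 CPM in any library, and *Krt5*, a basal keratin, was at 0. The T and B lymphocyte list summed to 3.79, 1.20, 3.40 and 1.13 CPM and the endothelial list to 2.72, 5.31, 6.33 and 5.84 CPM.

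Mesenchymal genes ran the other way. Of 12, 7 were abundant enough to be tested at 50 CPM. None of the 12 was above and 8 were below in all 8 ratios, 0 of them by 2-fold throughout. Of all genes tested 17.1% were below in all 8, and the list's median log2 ratio was -0.85. The 8 include the scarce *Snai1* and *Snai2*, with means of 0.448 and 1.26 CPM in H cells. *Vim* (vimentin) stood at 1270, 1222, 1207 and 1464 CPM in H cells against means of 2368 CPM in S cells and 2047 CPM in N cells. *Fn1* (fibronectin) stood at 484, 225, 374 and 307 CPM against 546 and 1223 CPM, *Cdh2* (N-cadherin) at 30.1, 30.4, 35.9 and 74.0 CPM against 65.8 and 254 CPM, and *Zeb2*, a repressor of epithelial genes, at 38.5, 17.6, 33.8 and 36.4 CPM against 45.3 and 155 CPM. *Zeb1* lay between the means of S cells (108 CPM) and N cells (248 CPM), at 140, 120, 143 and 177 CPM. Among the genes named here, G cells had lower means than H cells for *Fn1* (292 against 348 CPM), *Cdh2* (33.1 against 42.6), *Zeb2* (30.3 against 31.6) and *Zeb1* (66.8 against 145). For *Vim* the mean of G cells was higher (1785 against 1291 CPM).

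Of 14 hypoxia and glycolysis genes, 10 were abundant enough to be tested at 50 CPM. Of the 14, 6 were below in all 8 ratios, 0 of them by 2-fold throughout, and none was above (median log2 ratio -0.63). Of all genes tested 17.1% were below and 18.2% above. *Aldoa* stood at 465, 367, 547 and 294 CPM against means of 804 CPM in S cells and 658 CPM in N cells, *Ldha* at 533, 486, 645 and 364 CPM against 935 and 688 CPM, and *Bnip3* at 69.5, 56.1, 87.8 and 55.7 CPM against 154 and 169 CPM. Other members had medians above 0, namely *Car9* (1.07, at 72.0, 42.3, 35.7 and 32.2 CPM against 42.7 and 15.4 CPM), *Ndrg1* (0.13) and *Pdk1* (0.04). *Car9* was higher in G cells, at 93.3, 47.3, 67.6 and 45.1 CPM, and in S cells of Pdgfrb-TK/GCV and D-CAN. Of 12 acute phase and cytokine genes (median log2 ratio -0.03) 5 were abundant enough. Of these 2 were 2-fold above in all 8 ratios, as were 1.4% of all genes tested. They were *Cp* and the complement gene *C3* (122, 53.7, 185 and 44.4 CPM against 35.1 and 13.7 CPM). In G cells *C3* stood at 47.5, 43.4, 1071 and 15.0 CPM. *Csf2*, a myeloid growth factor, was at 1.42, 1.06, 1.24 and 2.54 CPM in H cells against 16.4 and 17.4 CPM. Of the 15 basal and squamous genes 8 were under 2 CPM in H cells.

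RNA quality moved with these differences. Median mitochondrial shares were 9.75%, 7.52%, 7.94% and 11.9% in H cells, against 4.56%, 3.29%, 3.88% and 5.48% in S cells and 4.44%, 3.06%, 3.19% and 4.203% in N cells. H cells were also shallower than S cells, whose medians were 15220.5, 12551.5, 24930.5 and 17699.5 UMIs. Of 5 nuclear RNAs, 4 of them abundant enough to be tested, 3 were above in all 8 ratios, where 18.2% of all genes tested were. *Malat1* was not, with 14131.5 CPM in H cells against 15100 CPM in N cells of Pdgfrb-TK/GCV and 12719 against 16037 CPM in D-CAN. *Neat1* stood at 2137, 2445, 1652 and 2538 CPM in H cells against means of 1005 and 1311 CPM, and *Kcnq1ot1* at 204, 176, 137 and 70.4 CPM against 51.5 and 86.0 CPM. The 58 higher genes had a median gene span of 145.5 kb, the 11 lower ones of 8.20 kb and all genes tested of 34.1 kb. The part of nuclear RNA in the result was not tested. With cells over 20% mitochondrial UMIs left out, 53 genes were higher and 9 lower than in S and N cells, 51 and 9 of them among those above.

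Likeness to list H was measured over the 16 sums of 4 libraries and 4 lists. The genes whose level followed the summed list H level most closely were *Rbm47* (Spearman rho 0.974), *Ahcyl2* (0.971), *Dop1b* (0.971), *Lurap1l* (0.971), *Chn2* (0.962) and *Elovl7* (0.962). *Rbm47*, an RNA-binding protein of epithelia, had means of 182, 127, 84.9 and 75.5 CPM in H, G, S and N cells. The 16 sums share libraries and cell choice, so these values only order the genes.

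With GCV, few genes of the H cells differed from Pdgfrb-TK/PBS. Of 3760 genes with at least 100 UMIs over both sums and 50 CPM in the higher one, 16 were at least 2-fold higher (0.426%) and 3 at least 2-fold lower (0.0798%). Against the WT/PBS library in place of Pdgfrb-TK/PBS the counts were 199 and 121, of which 8 and 0 were among these, and without mixed cells they were 23 and 30, of which 4 and 1 were among these, so that the share of higher genes fell from 84.2% to 43.4%. The largest log2 ratios were those of *Chil3* (3.91), *Lyz2* (2.41), *Hspa1a* (1.97), *Apoe* (1.91), *Hspa1b* (1.54), *Hsph1* (1.44), *Ankrd1* (1.25) and *Gpx2* (1.23). *Chil3*, *Lyz2* and *Apoe* are macrophage genes. *Chil3* stood at 83.0 CPM with GCV (interval 77.0 to 89.4) and 4.60 CPM with PBS (3.55 to 5.87), and at 3442 and 1079 CPM in *Ptprc* cells of the same libraries. It was also higher in S cells (62.8 against 2.95 CPM) and N cells (34.5 against 2.75 CPM). Of the 8 genes of the macrophage list 1 was abundant enough in H cells and was past 2-fold (*Lyz2*), and all 8 had a log2 ratio above 0, as did 1982 of all 3760 genes tested. The list's sum was 143, 32.1, 19.7 and 39.1 CPM in H cells, with *Lyz2* the most abundant, while *Csf1r* was at 3.67 and 0.920 CPM and *Adgre1* at 0.947 and 0.354 CPM. The part of macrophage RNA in these values was not tested.

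*Hspa1a*, *Hspa1b* and *Hsph1* encode heat shock proteins. *Hspa1a* stood at 50.2 CPM with GCV and 12.04 CPM with PBS, but WT/PBS, a saline library, had 264 CPM. *Fn1*, in the mesenchymal list, stood at 484 against 225 CPM (log2 ratio 1.10), and *C3* at 122 against 53.7 CPM (1.16). Lower with GCV were *Hbb-bs* (-5.42), a hemoglobin gene of red cells at 0.237 against 51.8 CPM, *Akr1c19* (-1.42) and the glutathione transferase *Gsta1* (-1.12) at 126 against 276 CPM. For these genes Pdgfrb-TK/PBS was the high library of the 4, since D-CAN and WT/PBS had 0 and 0 CPM of *Hbb-bs*, 75.4 and 58.2 CPM of *Akr1c19* and 102 and 130 CPM of *Gsta1*. The next genes in order stayed within 2-fold, namely *9530036O11Rik* (-0.98), *Anxa13* (-0.93), *Cmtm8* (-0.90), *Ascc1* (-0.88) and *Tm4sf4* (-0.83). *Gsta1* had log2 ratios of -2.14 and -2.04 in S and N cells.

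The duct and endoderm lists had 0 genes past 2-fold with GCV and medians of 0.13 and 0.07, where all genes tested had 0.01. Of the 14 cell cycle genes 6 were abundant enough, and 0 were past 2-fold, where 0.426% of all genes tested were higher and 0.0798% lower. All 14 had a log2 ratio above 0, with a median of 0.67, where 1982 of the 3760 genes tested had one above 0. The list's medians were 0.18 in S cells and 0.61 in N cells.

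With D-CAN, many more genes were apart. Of 4149 genes 264 were at least 2-fold higher than in WT/PBS (6.36%) and 205 at least 2-fold lower (4.94%), or 325 and 146 with median-of-ratios scaling in place of the total, which raised the share of higher genes from 56.3% to 69.0%. With the mean of per-cell CPM 245 were higher and 274 lower, so that the share of higher genes was 47.2%. When Pdgfrb-TK/PBS was the control in place of WT/PBS the counts were 66 and 26, of which 47 and 6 were among the 264 and 205. Without mixed cells 165 genes were higher and 624 lower. The largest log2 ratios were those of *Iigp1* (7.00), *Ctrb1* (5.66), *Gbp2* (5.36), *H2-K1* (4.21), *AW112010* (3.68), *Zfp239* (3.53), *St8sia3os* (3.39) and *Ly6a* (3.28). *Iigp1* and *Gbp2* encode interferon-induced GTPases, and *H2-K1* an MHC class I heavy chain. *Iigp1* stood at 1.18, 0.920, 163 and 0.283 CPM, high in the D-CAN library alone.

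Of 9 MHC class I and peptide loading genes all were above WT/PBS, with a median log2 ratio of 3.59, where 1831 of the 4149 genes tested were above (median -0.08). Of the 4 abundant enough 3 were past 2-fold higher, as were 6.36% of all genes tested. They were *H2-K1* (40.4, 13.9, 424 and 22.0 CPM), *H2-D1* (111, 92.6, 536 and 108 CPM) and *B2m* (168, 100.5, 932 and 109.7 CPM). D-CAN was the high library for each, and the other 3 did not reach it. Against the same background, the interferon list had 13 of 14 genes above WT/PBS and a median of 2.15, and its 3 genes that met the minimum were all past 2-fold higher, among them *Bst2* at 45.5, 29.4, 162 and 17.2 CPM and *Gbp2* at 4.14, 1.56, 86.7 and 1.13 CPM. S and N cells had MHC medians of 3.24 and 2.94 and interferon medians of 2.18 and 1.11, so the values were not confined to H cells.

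**Figure D5:**
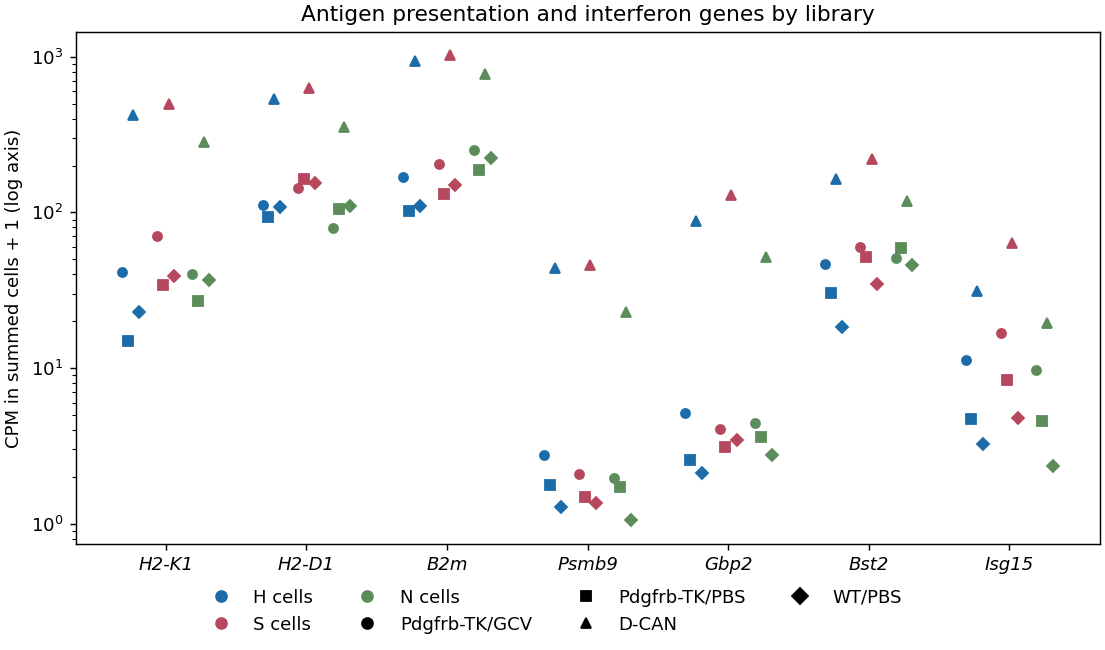
CPM plus 1 (log axis) of 7 antigen presentation and interferon genes in H (blue), S (red) and N (green) cells of each library (marker shapes). The D-CAN triangles lie above the other 3 libraries for every gene and class of cell, as for *H2-K1* in H cells at 424 CPM against 13.9 to 40.4 CPM.

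Cell cycle genes were all above WT/PBS in H cells, 14 of 14 (1831 of all 4149 genes tested were) with a median log2 ratio of 1.10. Of the 7 abundant enough 5 were past 2-fold higher, as were 6.36% of all genes tested. *Top2a* stood at 121, 66.3, 130 and 37.4 CPM and *Mki67* at 105, 70.4, 123 and 59.3 CPM. The same list had medians of 0.10 in S cells and -0.01 in N cells. Whether the classes differ could not be tested with 1 library per condition. WT/PBS was the lowest of the 4 libraries for both genes in H cells.

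Some duct and endoderm genes were also past 2-fold. Of 16 duct genes, 11 of them abundant enough, 4 were higher in D-CAN than in WT/PBS and 0 lower, among them *Onecut2* (1.48), *Bicc1* (1.23) and *Ehf* (2.99), where 6.36% of all genes tested were higher. Of 20 endoderm factors, 10 of them abundant enough, 4 were higher and 0 lower, among them *Hnf4a* (1.49), *Pdx1* (1.26) and again *Onecut2*. The list medians were 0.51 and 0.39. *Onecut2* in D-CAN lay near both Pdgfrb-TK libraries, at 1257, 1199, 1343 and 481 CPM, and WT/PBS was the low library. *Zfp239* and *St8sia3os* had the same shape, at 61.1, 61.7, 71.5 and 5.28 CPM and at 78.1, 71.1, 95.5 and 8.20 CPM.

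Lower with D-CAN were *Mgp* (-4.88), *Cry1* (-2.74), *Per1* (-2.66), *Sgk1* (-2.40), *Tspan5* (-2.40), *Arf2* (-2.38), *Gm20186* (-2.21) and *Nipal1* (-2.19). All 8 had their highest level in WT/PBS. *Per1* and *Cry1*, core genes of the circadian clock, stood at 17.9, 16.4, 11.3 and 77.0 CPM and at 12.1, 10.5, 7.33 and 54.8 CPM, and *Sgk1*, a glucocorticoid-induced kinase, at 26.8, 18.2, 9.49 and 54.4 CPM. *Lcn2* (lipocalin 2, an acute phase protein) stood at 56.6, 37.4, 39.95 and 179 CPM in H cells. S cells had 20.5 CPM with D-CAN against 46.8 CPM in WT/PBS, and N cells 23.2 against 2.80 CPM.

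Markers of other cells moved with this comparison. *Mgp*, a matrix protein of stromal cells, stood at 11.6, 44.0, 6.25 and 212 CPM, and the fibroblast list summed to 34.3, 94.2, 84.8 and 242 CPM, with *Col1a1* at 6.16, 25.3, 24.7 and 68.3 CPM, with *Pdgfrb* at 0.237, 1.13, 0.360 and 2.64 CPM. The acinar list summed to 48.1, 35.0, 159.5 and 29.5 CPM. The digestive enzyme gene *Ctrb1* was the most abundant acinar gene of the D-CAN library, at 68.7 CPM there against 0.377 CPM in the WT/PBS library, where *Cela1* led. *Ctrb1* stood at 163 CPM in the *Ptprc* cells of D-CAN. The part of stromal and acinar RNA in the result was not tested.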

How the data were processed

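The authors deposited counts, as UMIs per gene and cell, without normalization, from droplet 3′ libraries (10x Genomics). The submitters' processing notes name STAR 2.6 and mm10, the methods Cell Ranger 3.1.0 and the file headers Cell Ranger 7.0.0. The labels' protocol text describes nuclei of another tissue, and groups were taken from the sample titles. Of 32285 gene IDs, 32158 had a GENCODE M21 position.

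The rule for cells was applied to each library, and UMIs were summed over the cells of a list (Python 3.11.15, numpy 2.4.6, scipy 1.17.1). Totals of 5 reporter features were left out. Levels are CPM of the sum, and log2 ratios add 1 CPM to each side. Intervals are exact: Clopper-Pearson for shares, Poisson for levels, conditional binomial for folds. Steps were tested on simulated data. A state difference needed 50 CPM in the mean of at least 1 list. Named were the 6 list H genes, up to 4 genes of each list (the most abundant and those past 2-fold), the 12 higher and 8 lower genes with the largest median state ratio (applied here to the ratios to S and N cells, a choice made after the data were seen), 8 per direction by treatment and 6 by likeness. Other genes were chosen after their values were seen. The cells, lists and tests were chosen with earlier results of these data known. Alternatives changed filters, depth, list genes, scaling, pseudocount and control library. Some genes of the lists are counted but not reported by name here.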

Additional observations from a re-analysis of the deposited data

How the results depend on the processing

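Within 20 alternatives each, the counts of genes past 2-fold stayed within 1.5 times of 19 with GCV and 469 with D-CAN for 18. The exceptions were the other saline control (320 with GCV, 92 with D-CAN) and leaving out mixed cells (53 with GCV, 23 of them higher and 30 lower, and 789 with D-CAN). A like count need not hold the same genes. After thinning, 10 of the 19 higher and 2 of the 5 lower genes with GCV were among those of the main rule. With D-CAN 201 of 322 higher and 172 of 278 lower genes were. With median-of-ratios scaling the D-CAN counts were 325 higher and 146 lower, and with per-cell means 245 higher and 274 lower. The share fold with GCV (0.472) stayed below 1 in every alternative run. It was 0.356 with all cells of at least 2000 UMIs as the denominator, 0.897 with the other control, 0.531 after thinning, 0.767 with at least 5 epithelial genes and 0.519 without *Pik3c2g*. The share fold with D-CAN (2.38) was reversed to 0.836 without mixed cells. It was 1.77 with the wider denominator, 1.25 with the other control, 2.75 with at least 3 genes of a list, 3.49 after thinning, 2.66 with at least 5 epithelial genes, and 2.86, 2.81 and 2.10 without *Pkhd1*, *Pik3c2g* and *Hnf1aos1*. The causes were not tested.

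The 5 genes apart from G, S and N cells were 3 with a pseudocount of 10 CPM, 10 with a minimum of 10 CPM, 8 with per-cell means, 22 after thinning, 9 without cells over 20% mitochondrial UMIs, 21 without mixed cells, 69 against S and N cells alone, and 9, 8, 8, 14, 11 and 10 without *Tenm1*, *Pkhd1*, *Pik3c2g*, *Plch1*, *Onecut3* and *Hnf1aos1*. Leaving out 1 library gave 5 to 35, with 11 without D-CAN and 35 (33 higher, 2 lower) without WT/PBS. The 69 genes apart from S and N cells were 40 with a pseudocount of 10 CPM, 142 with a minimum of 10 CPM and 123 without mixed cells, and 73 to 115 without 1 library (105 without D-CAN, 115 without WT/PBS). The 11 lower ones among them became 7 with the higher pseudocount, 25 with the lower minimum and 30 without mixed cells. They became 29 with per-cell means, 28 without the deepest 8% of cells, and 30, 26 and 19 without *Pkhd1*, *Plch1* and *Hnf1aos1*. After thinning 14 were lower, 4 of them among the 11. The comparison with S and N cells alone, with all its alternatives, and leaving out the G cells of D-CAN (5) were chosen after seeing the data. No paired analysis was possible because each condition has 1 library.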

Other observations

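Reporter features were listed in the libraries of wild type mice alone and were not used above. In H cells, 8 UMIs of GFPcds fell in 8 of the 958 cells in D-CAN and in 8 of the 653 cells in WT/PBS, and 5 UMIs of Tdtomato fell in 4 cells of each. Over all cells, GFPcds had 605 UMIs in D-CAN and 2017 in WT/PBS.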
